A study of Callithrix jacchus with 39 samples.

Results

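The genes HK2, ALDOA, ALDOC and ENO2 encode isozymes of 3 steps of glycolysis. They were followed across embryonic stem cells (ESCs) and early embryos of the common marmoset, Callithrix jacchus. Their rows were taken from the gene count table through the gene IDs ENSCJAG00000017161 (HK2), ENSCJAG00000006874 (ALDOA), ENSCJAG00000012766 (ALDOC) and ENSCJAG00000007307 (ENO2), which are 4 of the 30811 IDs in the table. All 4 passed the filter on low counts in both the ESC and the embryo data.

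The study converted primed marmoset ESCs, which resemble the epiblast after implantation, towards a naive-like state that resembles the inner cell mass (ICM) before implantation, and sequenced polyadenylated RNA from 39 libraries. The 13 groups held 3 libraries each, and no label says if the 3 are independent cultures or embryos. The p-values therefore measure only how far libraries of a group spread, which may be technical. The 4 primed groups were DSY127 and No.40, whose titles carry no Tg, and DSY-c2 and N40, whose titles carry Tg. The 2 naive groups were DSY-c2, titled TgON, and N40, titled TgOFF. The labels do not define Tg, TgON or TgOFF, so the effect of the line and of that difference cannot be told apart between the naive groups. The 7 embryo groups were the morula, the ICM of the early, blastocyst, expanded, hatching and hatched stages, and the epiblast of postimplantation embryos. The labels used here give no age or number of embryos.

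Hexokinases add a phosphate to glucose, which traps it in the cell and commits it to use. HK1 is the widespread housekeeping form, and HK2 is the form typical of insulin-sensitive and rapidly growing tissue. Aldolases split fructose bisphosphate into triose phosphates; ALDOA is the muscle and widespread form and ALDOC the form best known from brain. Enolases make phosphoenolpyruvate; ENO1 is the widespread form, and ENO2 is best known as neuron-specific enolase. In the mouse, primed pluripotent cells are known to rely mainly on glycolysis, and naive cells to use both glycolysis and mitochondrial respiration.

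Library totals ran from 38.8 to 78.7 M counts in ESCs (M, a count of 1e6) and from 45.3 to 59.0 M in embryos. Levels are CPM (counts per 1e6 counts) on 1 scale for all 39 libraries. No fold is given between different genes, because counts were not divided by gene length. The labelled states were checked on marker lists. The summed level of 7 naive markers was 2720 to 3810 CPM in naive cells and 224 to 1280 CPM in primed cells. That of 5 primed markers was 7100 to 7310 CPM in epiblast and 102 to 1020 CPM in the ICM. It was 2600 to 4280 CPM in primed and 710 to 1430 CPM in naive cells. The highest ICM value, 1020 CPM, was hatched ICM replicate 2, against 143 and 244 CPM in its group. Early ICM replicate 3 held 36.7 CPM of trophectoderm markers, against 242 and 294 CPM in the other early libraries. Its naive markers were at 6640 CPM, against 3910 and 4350 CPM. Hatched ICM replicate 1 stood apart, with 1480 CPM of trophectoderm markers and 635 CPM of shared pluripotency markers, against 272 to 628 and 2480 to 2680 CPM in the other hatched libraries. It also had 4420 CPM of 6 primitive endoderm markers, against 1090 and 2210 CPM. Over all ICM libraries these markers summed to 556 to 4470 CPM, beside 597 to 668 CPM in epiblast. They were at 103 to 195 CPM in naive and 14.8 to 476 CPM in primed cells. DSY-c2 primed replicate 4 also stood apart, with 338 CPM of mesoderm markers against 90.9 to 91.4 CPM in the other libraries of its group. Its primitive endoderm markers were at 476 CPM against 42.8 and 59.7 CPM. Its neural markers were at 666 CPM against 380 and 391 CPM. It had the highest HK2 (109 CPM) and the lowest ENO2 (68.9 CPM) of the group.

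HK2 and ENO2 moved in opposite directions between pluripotent states, and did so both in culture and in the embryo. HK2 was higher in naive than in primed cells and higher in the ICM than in the epiblast. ENO2 was lower in naive than in primed cells and was at or near 0 throughout the ICM, and its libraries overlapped between epiblast and primed cells. ALDOC was also higher in epiblast than in the ICM, while its difference between naive and primed cells did not pass the test. ALDOA had its lowest mean in the morula and rose by less than 1 log2 unit in naive cells, in calls that rested on single libraries.

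**Figure D1:**
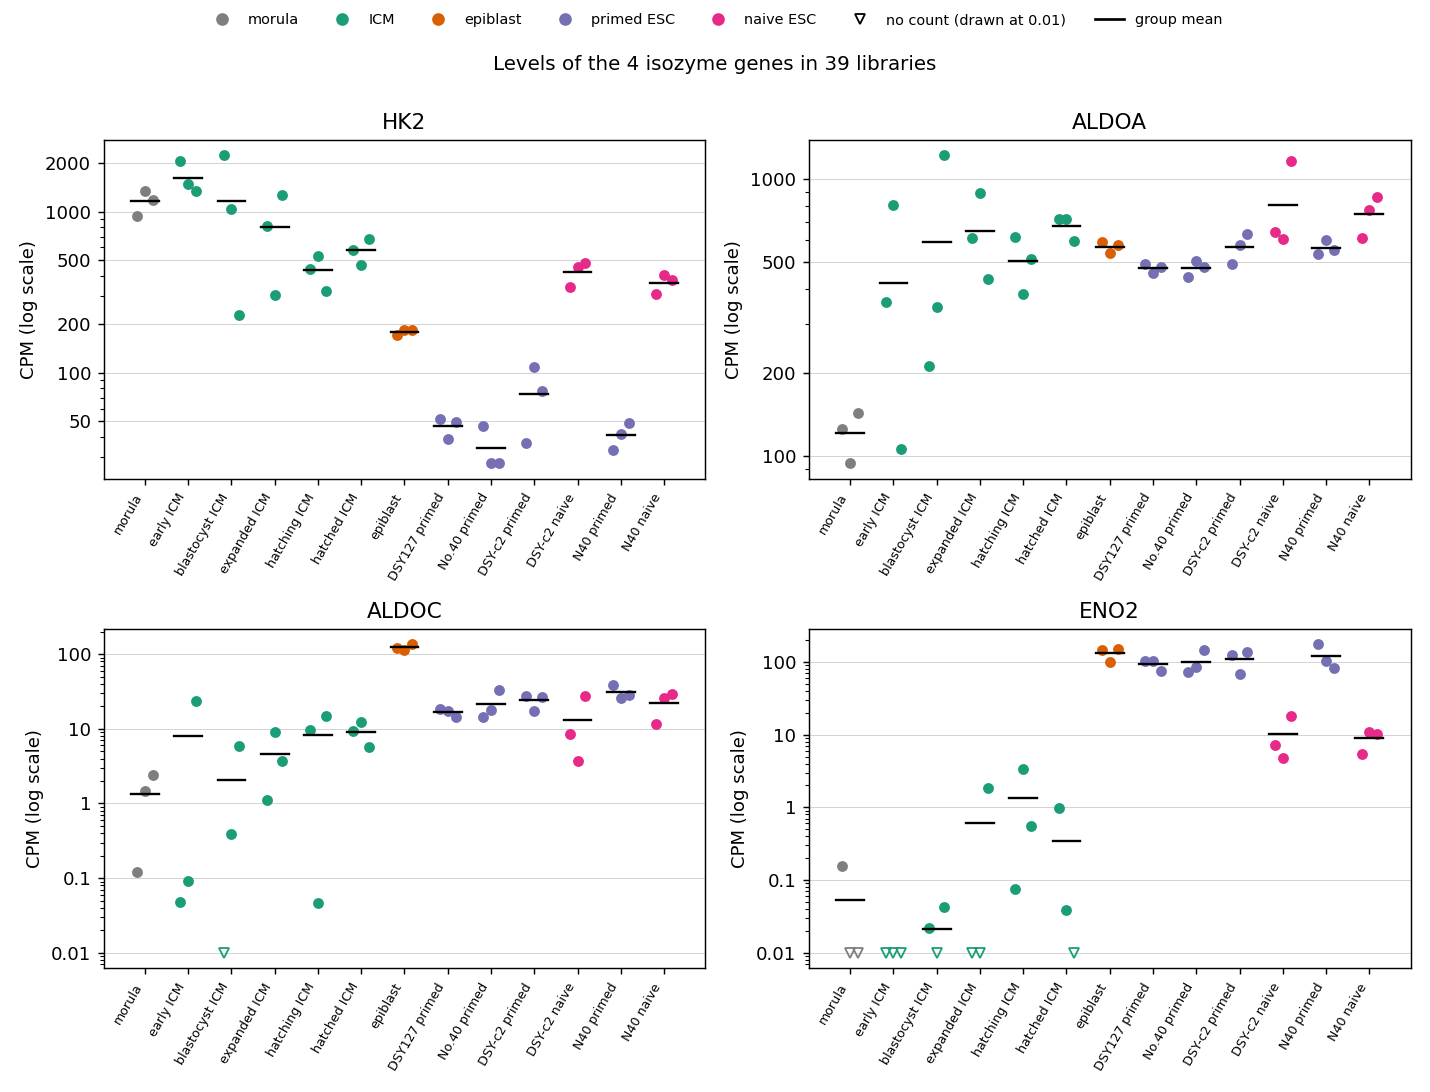
Level of each gene (CPM, log scale) in the 39 libraries, by group; each point is a library, the bar is the mean of 3 libraries, and open triangles are libraries with no count. HK2 sits at 308 to 480 CPM in naive cells and 27.4 to 109 CPM in primed cells, whereas ENO2 sits at 4.72 to 18.2 CPM and 68.9 to 174 CPM.

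HK2 levels in naive cells did not overlap those in primed cells. In DSY-c2 naive cells HK2 stood at 342, 452 and 480 CPM, and in DSY-c2 primed cells at 36.4, 109 and 76.8 CPM. In N40 naive cells it stood at 308, 404 and 377 CPM, and in N40 primed cells at 33.2, 41.7 and 48.5 CPM. The lowest naive library was thus above the highest primed library in each line. HK2 rose in the naive state by 2.62 ± 0.33 on the log2 scale in DSY-c2 (± SE, n = 3 against 3, adjusted p = 9.08e-06 by edgeR's quasi-likelihood test with Benjamini-Hochberg adjustment). In this comparison 58.8% of the genes tested were called at an adjusted p under 0.05. In N40, where 61% of genes were called, the rise was 3.29 ± 0.34 (adjusted p = 9.85e-07, edgeR). The change did not differ detectably between the lines: the difference was -0.67 (95% interval -1.54 to 0.21, adjusted p = 0.348, edgeR), in a comparison that called 15.1% of genes. In bulk RNA a smaller share of cells with a transcript and less transcript per cell cannot be told apart.

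The primed lines without Tg in their titles were also low in HK2. DSY127 stood at 51.8, 38.9 and 49.4 CPM and No.40 at 46.7, 27.4 and 27.6 CPM, inside or just below the range of the other primed groups. DSY-c2 primed cells were 0.91 ± 0.32 higher than N40 primed cells on the log2 scale (adjusted p = 0.0388, edgeR, with 35.2% of genes called), although their libraries overlapped, and this call was lost with no filter on low counts (adjusted p = 0.0734). The highest of these libraries, at 109 CPM, was DSY-c2 primed replicate 4, which stood apart on its markers. All DSY-c2 primed columns carry run suffixes L6 and L7, which no label explains. All N40 primed and DSY127 columns carry L1 and L2, so line and suffix cannot be told apart in comparisons with DSY-c2 primed cells. HK2 differed by 0.61 between DSY-c2 and DSY127 primed cells (adjusted p = 0.694, 1.88% of genes called), by 0.17 between N40 and No.40 (adjusted p = 0.758, 21.9% called) and by 0.47 between DSY127 and No.40 (adjusted p = 0.483, 4.47% called), all by edgeR. Between the 2 naive groups the difference was 0.24 (95% interval -0.38 to 0.85, adjusted p = 0.601, edgeR, 34.1% of genes called).

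In the embryo, HK2 was abundant before implantation. The morula stood at 944, 1350 and 1190 CPM and the early blastocyst ICM at 2050, 1480 and 1340 CPM. The next stages varied widely between libraries, at 2250, 1040 and 228 CPM in the blastocyst ICM and 820, 306 and 1270 CPM in the expanded blastocyst ICM. The hatching stage stood at 442, 530 and 323 CPM, and the hatched stage at 578, 470 and 679 CPM. Every one of these libraries exceeded the epiblast, which stood at 171, 183 and 185 CPM. HK2 was 2.23 lower in epiblast than in the mean of the 5 ICM stages on the log2 scale (-2.23 ± 0.50, n = 3 against 15, adjusted p = 0.00169, edgeR), in a comparison that called 44.8% of genes. The median of all genes in that comparison was 0.20, and 0.44 with DESeq2 size factors. Against hatched ICM alone the difference was -1.70 ± 0.56 (adjusted p = 0.0401, edgeR, 19.9% of genes called), and with DESeq2 size factors this call was lost (adjusted p = 0.0634). HK2 also passed the F test over all 7 stages (adjusted p = 0.0052, edgeR), as did 38% of genes.

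HK2 was not called at any single step from one preimplantation stage to the next. The step from morula to early blastocyst ICM gave 0.47 ± 0.54 (adjusted p = 0.657, edgeR, 6.16% of genes called). The 4 steps among ICM stages gave -0.47, -0.55, -0.90 and 0.41 with adjusted p from 0.768 to 1 (edgeR). Their intervals were wide, as in the step from expanded to hatching ICM (95% interval -1.97 to 0.18). These 4 steps called 0.0295% of genes at the first and 0% at the others by edgeR, where 923, 831 and 1134 genes had an unadjusted p under 0.05 and DESeq2 called 322, 255 and 226. Ordered by mean level, HK2 ran from No.40 primed at 33.9 ± 11.1 CPM (SD, n = 3) through N40, DSY127 and DSY-c2 primed cells to epiblast at 179 ± 7.83, N40 naive at 363 ± 49.2 and DSY-c2 naive at 424 ± 72.8 CPM. The hatching, hatched and expanded ICM, the morula and the blastocyst ICM followed, up to the early blastocyst ICM at 1620 ± 376 CPM. Of the 12 pairs of neighbours in this order, 10 overlapped; the gaps lay between DSY-c2 primed cells and epiblast, and between epiblast and N40 naive cells.

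In this order the naive groups stood next to the hatching ICM, whose libraries overlapped those of DSY-c2 naive cells. Against the mean of all 5 ICM stages, the 2 naive groups were lower by a log2 difference of -1.07 ± 0.29 (adjusted p = 0.00225, edgeR, 59.7% of genes called), with overlapping libraries. The 4 primed groups were lower than epiblast by a log2 difference of -1.94 ± 0.33 (adjusted p = 2.29e-05, edgeR, 38.4% of genes called), without overlap. In these 2 comparisons cell state cannot be told apart from the difference between cultured cells and embryos in source and input, and they reuse the ICM and epiblast libraries of the embryo comparison.

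Differences in ALDOA between naive and primed cells were small. In DSY-c2 it stood at 644, 609 and 1160 CPM in naive cells and 493, 579 and 635 CPM in primed cells, which overlapped. In N40 it stood at 610, 774 and 859 CPM in naive cells and 534, 604 and 553 CPM in primed cells, where the lowest naive library was only just above the highest primed library. The rise was 0.60 ± 0.19 on the log2 scale in DSY-c2 (adjusted p = 0.0129, edgeR) and 0.55 ± 0.19 in N40 (adjusted p = 0.0192, edgeR). Both calls were fragile. Without DSY-c2 naive replicate 3 the first was 0.22 (adjusted p = 0.166), and without DSY-c2 primed replicate 2 it was 0.48 (adjusted p = 0.0727). The second was lost when any of 5 of the 6 N40 libraries was left out (0.43 to 0.53, adjusted p = 0.0607 to 0.121), so it rested on all of them but naive replicate 1.

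DSY-c2 naive replicate 3 was set apart by more than ALDOA. Its columns carry run suffixes L1 and L2, while the other DSY-c2 naive libraries and all DSY-c2 primed libraries carry L6 and L7, a suffix that no label explains. The values without it are therefore also the values within 1 suffix. ENO1 stood at 2040 CPM in this library and at 1010 and 912 CPM in the other libraries of its group. HK2 kept its rise without it, and the range over all 6 libraries left out in turn was 2.26 to 2.99 in DSY-c2 and 3.06 to 3.35 in N40. Outside DSY-c2, only No.40 replicate 1 carried L6 and L7, and the other No.40 libraries carried L1 and L2.

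The primed lines without Tg held ALDOA at 492, 457 and 480 CPM (DSY127) and 442, 507 and 479 CPM (No.40). ALDOA was not called in the 4 comparisons run between primed groups or between the naive groups, with log2 differences of 0.01 to 0.20 and adjusted p from 0.665 to 0.989 (edgeR). The naive change differed by 0.05 between the lines (95% interval -0.48 to 0.58, adjusted p = 0.942, edgeR).

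In the embryo ALDOA was lowest in the morula, at 125, 94.1 and 143 CPM. The early blastocyst ICM varied widely, at 360, 802 and 106 CPM, so that 1 library lay within the morula range. The blastocyst ICM stood at 211, 344 and 1220 CPM and the expanded ICM at 612, 892 and 437 CPM. The later stages were tighter, at 615, 384 and 512 CPM in hatching ICM, 717, 717 and 598 CPM in hatched ICM and 593, 539 and 576 CPM in epiblast. The step from morula to early ICM gave 1.79 ± 0.59 (adjusted p = 0.0828 by edgeR, 0.0225 by DESeq2). Epiblast and the ICM stages had almost the same mean, 569 against 568 CPM, with a log2 difference of -0.01 (95% interval -0.88 to 0.87, adjusted p = 1, edgeR). The interval is wide enough to hold a change of nearly 1 log2 unit either way. The F test over 7 stages gave an adjusted p of 0.0615 (edgeR).

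Naive cells and the ICM differed in ALDOA by 0.47 ± 0.26 (adjusted p = 0.127, edgeR), and primed cells and epiblast by -0.13 ± 0.36 (adjusted p = 0.807, edgeR). With no filter on low counts the first became 0.64 and passed (adjusted p = 0.0489). In order of mean level, ALDOA ran from 121 ± 24.7 CPM in the morula to 803 ± 306 CPM in DSY-c2 naive cells (SD, n = 3). All 12 pairs of neighbours overlapped.

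ALDOC was highest in epiblast, at 122, 112 and 135 CPM. No other library passed 38.3 CPM. The ICM libraries were low and uneven, at 0.0484, 0.0907 and 23.7 CPM in the early stage, 0, 0.39 and 5.85 CPM in the blastocyst stage and 1.1, 9.09 and 3.65 CPM in the expanded stage. The hatching ICM stood at 9.64, 0.046 and 14.9 CPM and the hatched ICM at 9.32, 12.5 and 5.73 CPM, while the morula stood at 0.119, 1.46 and 2.39 CPM. Early ICM replicate 3 held 1066 ALDOC counts where the other early libraries held 2 and 4, and this library also had the lowest ALDOA of its stage. All ICM libraries lay below all epiblast libraries. The difference between epiblast and ICM was 4.41 ± 1.15 on the log2 scale (adjusted p = 0.00503, edgeR), and the ratio of mean CPM was 19.2. Over all libraries left out in turn it ran from 4.23 to 5.68 and stayed called.

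Against hatched ICM alone the ALDOC difference was 3.71 ± 2.02 and missed the threshold (adjusted p = 0.208, edgeR) although the libraries did not overlap. The step from morula to early ICM gave 2.58 ± 1.93 (adjusted p = 0.447), the 4 steps among ICM stages gave adjusted p from 0.707 to 1, and the F test gave 0.0583 (all edgeR).

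In ESCs ALDOC was low in every group. DSY-c2 naive cells stood at 8.47, 3.74 and 27.6 CPM and DSY-c2 primed cells at 27.6, 17.4 and 26.9 CPM. N40 naive cells stood at 11.6, 25.8 and 29.2 CPM and N40 primed cells at 38.3, 26.2 and 28.4 CPM. In both lines the groups overlapped. The naive change was -0.74 ± 0.54 in DSY-c2 (adjusted p = 0.252, edgeR) and -0.33 ± 0.53 in N40 (adjusted p = 0.609, edgeR). Without DSY-c2 naive replicate 3 the first became -1.89 and passed (adjusted p = 0.00247, edgeR), so that library decided the call. The difference of the changes between the lines was -0.41 (95% interval -1.89 to 1.07, adjusted p = 0.772, edgeR).

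DSY127 held ALDOC at 18.3, 17.5 and 14.2 CPM and No.40 at 14.4, 18 and 32.6 CPM. The 4 primed groups together were lower than epiblast by a log2 difference of -2.43 ± 0.97 (adjusted p = 0.0472, edgeR), a call that was lost under 4 of the alternatives run, with adjusted p of 0.0517 to 0.0959. Naive cells and ICM differed by 1.60 ± 0.78 (adjusted p = 0.0777, edgeR). The order of mean level ran from the morula at 1.32 ± 1.14 CPM to epiblast at 123 ± 11.7 CPM, and the only gap between neighbours lay between N40 primed cells, at 31 ± 6.46 CPM, and epiblast.

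ENO2 was low in naive and high in primed cells. In naive cells it stood at 7.21, 4.72 and 18.2 CPM in DSY-c2 and 5.45, 10.9 and 10.2 CPM in N40. In primed cells it stood at 124, 68.9 and 137 CPM in DSY-c2 and 174, 102 and 82 CPM in N40. The highest naive library was below the lowest primed library in each line. ENO2 fell by 3.34 on the log2 scale in DSY-c2 (SE 0.49, adjusted p = 4.59e-05, edgeR) and by 3.61 in N40 (SE 0.50, adjusted p = 2.15e-05, edgeR). Mean CPM was 11-fold higher in primed than in naive DSY-c2 cells and 13.5-fold higher in N40. With each library left out in turn, the change was -4.12 to -3.03 in DSY-c2 and -3.89 to -3.32 in N40, and stayed called.

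The fall did not differ detectably between the lines (0.26 ± 0.64, adjusted p = 0.834, edgeR). DSY127 held ENO2 at 104, 102 and 74.3 CPM and No.40 at 73, 85.3 and 145 CPM, within the range of the primed lines with Tg. The 4 comparisons run between primed groups gave ENO2 log2 differences of -0.09 to 0.17, with adjusted p from 0.86 to 1 (edgeR).

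In the embryo ENO2 was at or near 0 before implantation. The early ICM had no count in any of its 3 libraries, and the morula had 0.158 CPM in 1 library and none in the others. The blastocyst ICM stood at 0.0222, 0 and 0.0425 CPM, from 3 counts in all, and the expanded ICM at 0, 0 and 1.83 CPM. The hatching ICM stood at 0.075, 3.36 and 0.561 CPM and the hatched ICM at 0.982, 0.039 and 0 CPM. Levels differed widely between libraries of a stage. Epiblast stood at 146, 101 and 150 CPM, above every ICM library.

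Mean ENO2 was 132 ± 27.3 CPM in epiblast (SD, n = 3) and 0.46 ± 0.952 CPM over the 15 ICM libraries, a ratio of 288. Against the early ICM, taken at a floor of 3 counts over the group, epiblast was at least 5760-fold higher. The fitted log2 difference between epiblast and ICM was 10.18 ± 1.31 (adjusted p = 2.88e-05, edgeR); it depends on the prior count because a stage is at 0, and is no bound. Against hatched ICM it was 8.57 ± 2.46 (adjusted p = 0.0231, edgeR), and the F test over 7 stages gave 0.000742. No step among the stages before implantation was called (adjusted p = 0.453 to 1, edgeR).

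Naive cells held less ENO2 than primed cells, yet more than the ICM. Their mean of 9.44 ± 4.94 CPM (SD, n = 6) was 20.5 times that of the ICM, and no naive library overlapped the ICM libraries, whose highest was 3.36 CPM (adjusted p = 8.19e-08, edgeR). Primed cells and epiblast did not differ by the test (log2 difference -0.33, 95% interval -2.02 to 1.36, adjusted p = 0.803, edgeR). In the order of mean level the gaps lay between the hatching ICM at 1.33 ± 1.77 CPM and N40 naive cells at 8.84 ± 2.95, and between DSY-c2 naive cells at 10 ± 7.16 and DSY127 primed cells at 93.5 ± 16.7 CPM. Source and input differ between cells and embryos here too.

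**Figure D2:**
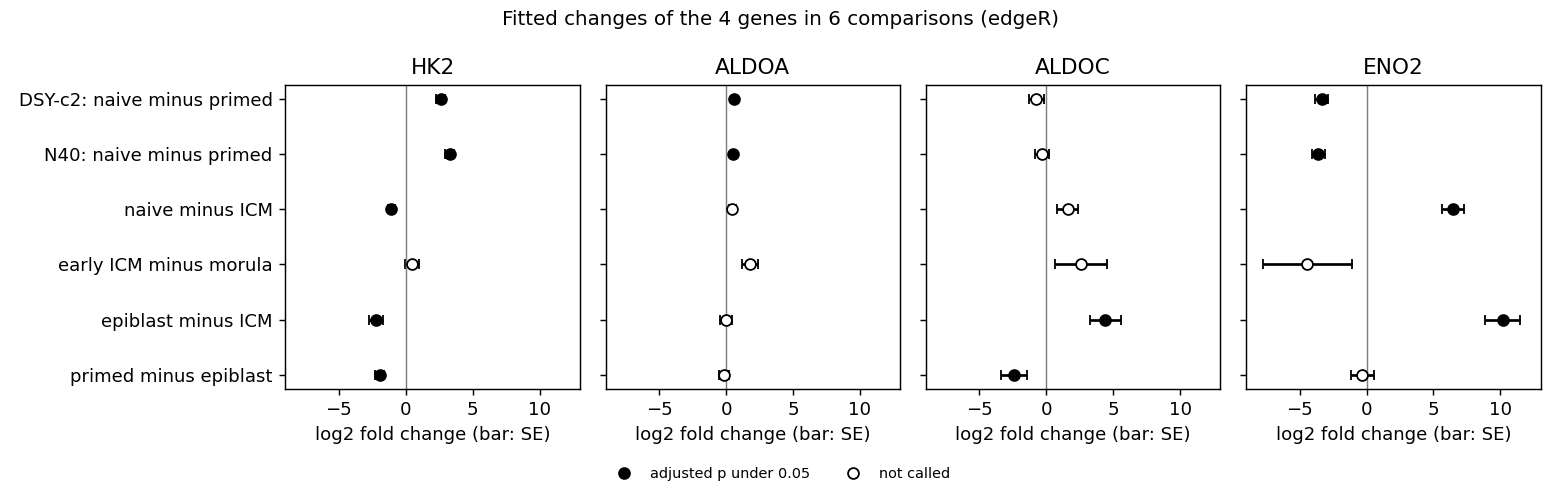
Fitted log2 fold change of each gene (point, bar ± SE) in 6 comparisons; filled points have an adjusted p under 0.05 by edgeR's quasi-likelihood test. HK2 lies at 2.62 and 3.29 in the naive comparisons and at -2.23 in epiblast minus ICM, and ENO2 at -3.34, -3.61 and 10.18.

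ENO2 and ALDOC are also known from neurons, and neural markers moved with them in part. The summed level of 12 neural markers was 91.5 to 195 CPM in naive cells and 296 to 666 CPM in the primed Tg groups, without overlap. The highest value came from DSY-c2 primed replicate 4. Much of the sum was TUBB3, at 206 and 227 CPM in primed and 85.9 and 112 CPM in naive cells of DSY-c2 and N40. Of the 12 markers, 8 were lower and 1, ELAVL4, higher in naive DSY-c2 cells (edgeR, adjusted p under 0.05). In N40, 6 were lower and 4 higher (ELAVL3, ELAVL4, GFAP and NEFL). Over all genes, 29.3% were called lower and 29.6% higher in DSY-c2, and 28.7% and 32.3% in N40. In epiblast the sum was 244 to 254 CPM, inside the ICM range of 80.5 to 482 CPM. Of 11 tested markers, 6 were called higher in epiblast (ELAVL3, GAP43, MAP2, NCAM1, NEFL and NEFM) and 1, SLC1A3, lower. Of the 6, the libraries of ELAVL3, MAP2, NEFL and NEFM overlapped between epiblast and ICM. ELAVL3 was at 0 to 1.1 CPM in epiblast and up to 0.747 CPM in the ICM. NEFL was at 11.3 to 19 CPM in epiblast and up to 39.7 CPM in the ICM. Over all genes, 26.1% were called higher and 18.7% lower. The median log2 difference of the 11 markers was 4.24, beside 0.20 over all genes. NCAM1, ELAVL3, GAP43 and NEFM averaged under 1 CPM in the ICM, so this median depends on counts near 0. A gene high in epiblast alone could also pass the filter on low counts, so the median is not read as a result about neural markers. NCAM1 stood at 92.8 CPM in epiblast and 0.0174 CPM in the ICM, while TUBB3 stood at 95.3 and 200 CPM and was not called. Fibroblast markers were at 1510 to 1710 CPM in epiblast and 0 to 31.5 CPM in the ICM. In ESCs they were at 66 to 443 CPM in naive and 283 to 762 CPM in primed Tg cells. The primed lines without Tg were above these, at 870 to 2130 CPM in DSY127 and 1080 to 2000 CPM in No.40. Mesoderm markers were at 668 to 730 CPM in epiblast against 0.0484 to 11.1 CPM in the ICM, and at 2.36 to 5.12 CPM in naive against 70.4 to 338 CPM in primed Tg cells. The part of other cell types in the levels of the 4 genes was not tested.

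Of the other isozymes of the same steps, HK1 rose with HK2 in naive cells. It stood at 358, 337 and 442 CPM in DSY-c2 naive and 206, 205 and 244 CPM in DSY-c2 primed cells, and at 252, 352 and 349 CPM in N40 naive and 243, 203 and 237 CPM in N40 primed cells. In neither line did the groups overlap, and the log2 change was 0.90 ± 0.13 (adjusted p = 2.5e-05, edgeR) and 0.63 ± 0.13 (adjusted p = 0.00063, edgeR). In the embryo HK1 went the other way from HK2, from 86.9 ± 24.3 CPM over the ICM (SD, n = 15) to 282, 263 and 225 CPM in epiblast (1.54 ± 0.27, adjusted p = 0.000271, edgeR), without overlap.

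ENO1 did not pass the test between naive and primed cells (0.27 ± 0.25, adjusted p = 0.375 in DSY-c2, and 0.31 ± 0.25, adjusted p = 0.311 in N40, both edgeR). In epiblast it stood at 677, 696 and 668 CPM, above all ICM libraries (402 ± 93.4 CPM, SD, n = 15), a rise of 0.74 ± 0.20 (adjusted p = 0.0057, edgeR). HK3, another hexokinase, was highest at 4.7 CPM in epiblast replicate 1 and at or near 0 in most libraries.

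HKDC1, a hexokinase-like enzyme, had a pattern of its own. In the morula it stood at 128, 94.2 and 154 CPM, and in the early ICM at 0, 0.0907 and 0.0445 CPM, a fall from a mean of 126 ± 30.2 to 0.0451 ± 0.0454 CPM (fitted log2 change -11.37 ± 2.77, adjusted p = 0.021, edgeR). No ICM or epiblast library passed 4.93 CPM. In DSY-c2 naive cells HKDC1 stood at 8.66, 21.4 and 23.9 CPM against 1.39, 1.71 and 1.57 CPM in DSY-c2 primed cells (3.63 ± 0.49, adjusted p = 9.03e-06, edgeR). In N40 it stood at 2.67, 1.3 and 2.18 CPM in naive and 1.78, 1.74 and 2.31 CPM in primed cells, which overlapped (0.22 ± 0.45, adjusted p = 0.686, edgeR).

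**Figure D3:**
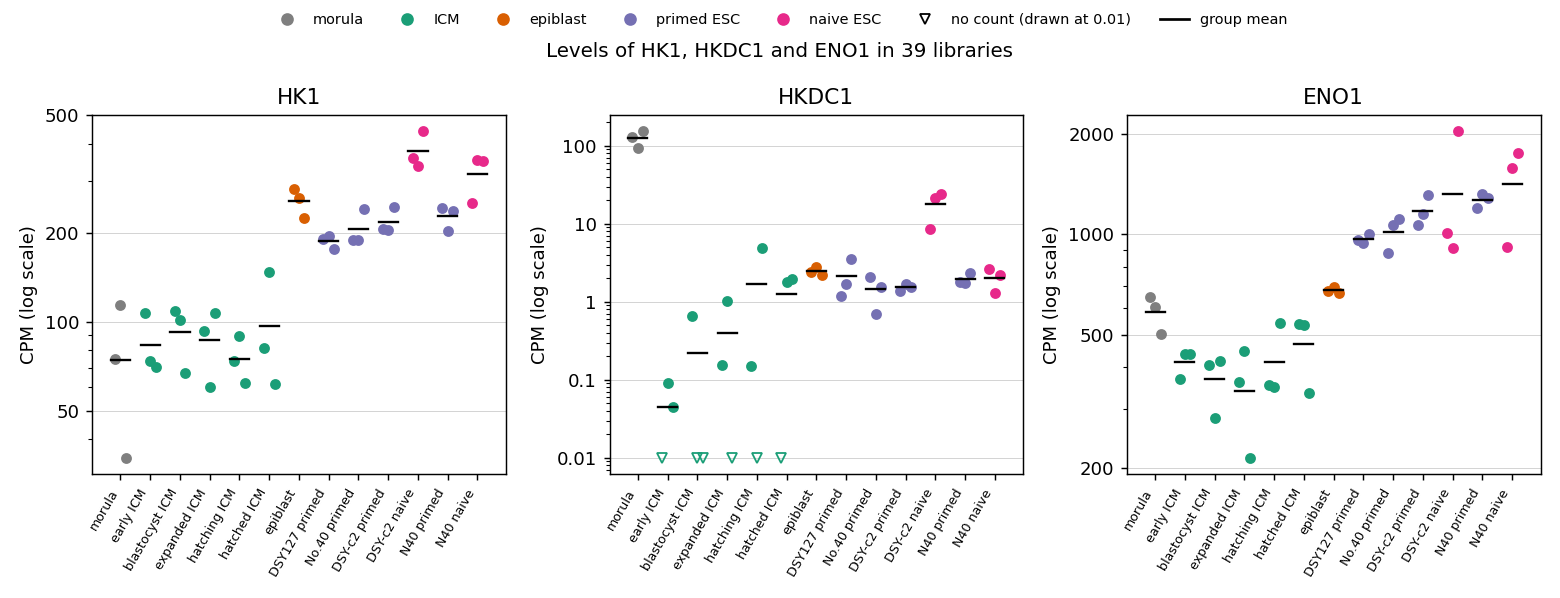
Levels (CPM, log scale) of HK1, HKDC1 and ENO1 in the 39 libraries, drawn as points by group with the mean as a bar and libraries without a count as open triangles. HKDC1 is at 94.2 to 154 CPM in the morula and at most 23.9 CPM elsewhere, and HK1 is higher in epiblast, at 225 to 282 CPM, than in the ICM.

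The balance of 2 isozymes within a library does not depend on library size. It was measured as the log2 ratio of their counts, with 0.5 added to each, and only its change between libraries is read, since gene length is not removed. The HK2:HK1 ratio was -0.06 to 0.42 in the 6 naive libraries and -3.13 to -0.91 in the 12 primed libraries. It was 1.67 to 4.37 in the 15 ICM libraries and -0.72 to -0.29 in epiblast. Naive cells thus lay between epiblast and ICM, and primed cells below epiblast, without overlap among the 4.

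The naive HK2:HK1 ratio exceeded that of the primed Tg cells by 2.26 (adjusted p = 0.006, two-sided exact permutation test within each line over 400 regroupings). Epiblast was below ICM by a difference of -3.64 (adjusted p = 0.00368, two-sided exact permutation test over 816 regroupings). The smallest raw p-values these designs can give are 0.005 and 0.00123, and adjustment was over 6 ratio tests.

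The ENO2:ENO1 ratio was -7.59 to -6.81 in naive, -4.06 to -2.79 in primed, -15.45 to -6.70 in ICM and -2.78 to -2.15 in epiblast libraries. Naive cells overlapped the upper end of the ICM range and lay below primed cells without overlap, a difference of -3.78 from the primed Tg cells (adjusted p = 0.006, exact permutation test). Epiblast lay above ICM by 10.30 (adjusted p = 0.00368, exact permutation test), a size that depends on the 0.5 added where ENO2 had no count.

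The ALDOC:ALDOA ratio separated the states less sharply. It was -7.34 to -5.39 in DSY-c2 naive and -5.06 to -4.16 in DSY-c2 primed libraries, and -5.72 to -4.88 in N40 naive and -4.53 to -3.80 in N40 primed libraries. The groups did not overlap within either line, and the difference was -1.35 (adjusted p = 0.006, exact permutation test). Primed DSY127 libraries, at -5.08 to -4.71, overlapped the N40 naive ones. Epiblast stood at -2.28 to -2.09 and ICM at -14.21 to -2.16, where the highest ICM value was early ICM replicate 3 (difference 6.09, adjusted p = 0.00858, exact permutation test).

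**Figure D4:**
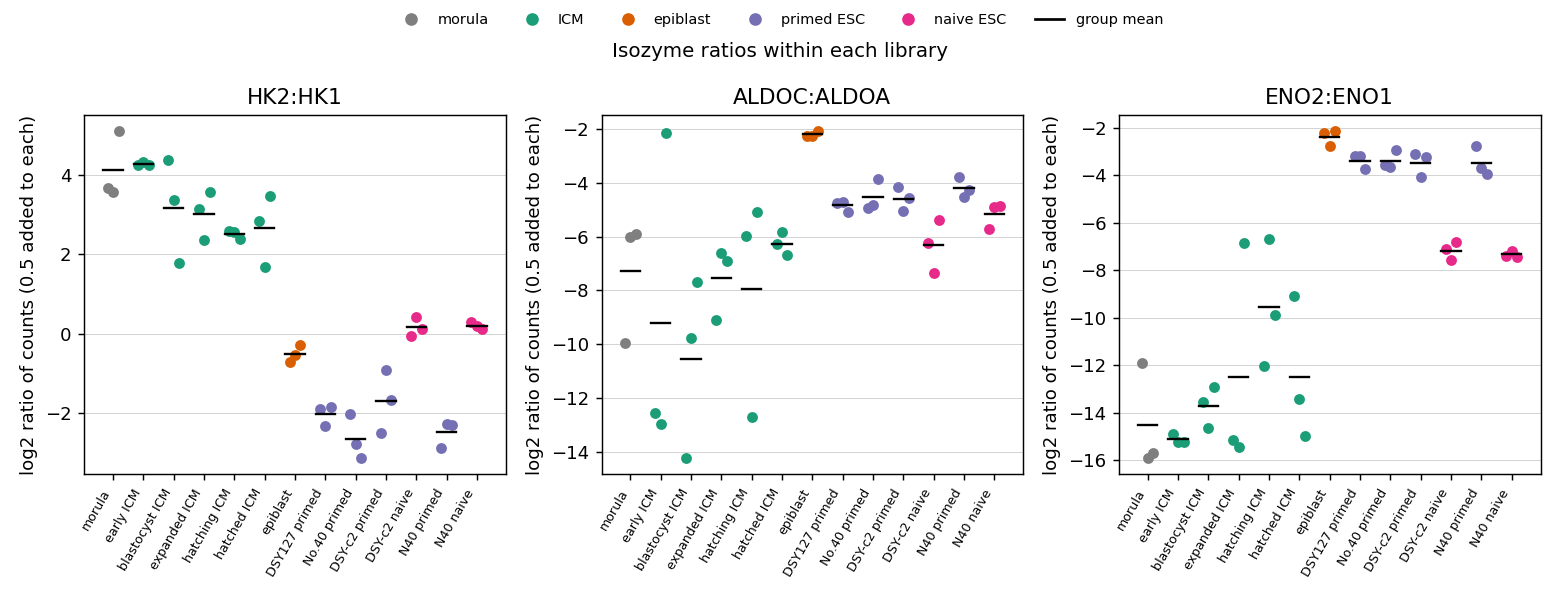
Log2 ratio of the counts of 2 isozymes within each library (0.5 added to each count), by group, with points for libraries and bars for means. HK2:HK1 falls from the ICM, at 1.67 to 4.37, to epiblast, at -0.72 to -0.29, and ENO2:ENO1 is at -7.59 to -6.81 in naive and -4.06 to -2.79 in primed cells.

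The rest of the glycolytic chain was read from a list of 28 enzymes, 23 of which had a gene ID and 20 of which were tested, the 4 genes included. In DSY-c2, 6 were higher and 4 lower in naive cells (29.6% and 29.3% of all genes were called in these directions), with a median log2 change of 0.07 beside 0.03 over all genes. In N40, 7 were higher and 5 lower (background 32.3% and 28.7%), with a median of 0.26 beside 0.09. Without the 4 genes, 4 of 16 were higher and 3 lower in DSY-c2, and 5 and 4 in N40. GPI, the isomerase that follows hexokinase, rose in both lines (0.66 and 0.49, adjusted p = 0.000574 and 0.00568, edgeR). LDHC, a testis form of lactate dehydrogenase, rose by 1.51 and 3.81, while PKLR, the liver and red cell pyruvate kinase, fell from 2.86 to 0.544 and from 3.69 to 0.716 CPM.

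In epiblast 10 of the 20 were higher than in the ICM and 1, HK2, was lower (background 26.1% and 18.7%), with a median of 1.54 beside 0.20 over all genes. Without the 4 genes, 8 of 16 were higher and 0 lower. HK2 was thus the only tested enzyme of the list called lower there. The higher ones included PFKP, a form of phosphofructokinase (2.73 ± 0.30, adjusted p = 4.36e-06, edgeR), PKM, the main pyruvate kinase (2.14 ± 0.23, adjusted p = 3.97e-06, edgeR), and PGK1, phosphoglycerate kinase (1.54 ± 0.28, adjusted p = 0.000301, edgeR).

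All 4 tested parts of pyruvate dehydrogenase, which turns pyruvate into acetyl-CoA within mitochondria, were higher in naive cells of both lines (DLAT by 1.87 ± 0.10 and 1.33 ± 0.10, PDHB by 1.21 ± 0.08 and 1.23 ± 0.08). Of the 4, 3 were lower in epiblast than in the ICM (PDHB by a log2 difference of -2.52 ± 0.24). The background over all genes was 29.6% higher and 29.3% lower in DSY-c2, 32.3% and 28.7% in N40, and 26.1% and 18.7% in epiblast. Among 8 regulators, 3 were higher and 2 lower in DSY-c2, 4 and 2 in N40, and 2 and 0 in epiblast. PDK1, a kinase that inhibits pyruvate dehydrogenase, rose by 1.61 ± 0.14 and 2.46 ± 0.14, and PFKFB3, which makes an activator of phosphofructokinase, changed by -2.06 ± 0.24 and -3.55 ± 0.25.

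The same background shares apply to the lists that follow. Of the glucose and lactate transport list, 2 of 7 were higher and 2 lower in either line, and 3 and 2 of 8 in epiblast. For SLC2A1, the widespread glucose transporter, the log2 change was -1.54 ± 0.25 in DSY-c2, -0.85 ± 0.25 in N40 and 2.93 ± 0.42 in epiblast. HK2 is a known target of hypoxia-inducible factor (HIF) in other tissues. Of 13 HIF response genes, 4 were higher and 3 lower in DSY-c2, 6 and 2 in N40, and 5 and 2 in epiblast. The subunits of HIF did not move as one. HIF1A was lower in naive cells (-0.62 ± 0.12 and -0.71 ± 0.12) and higher in epiblast (2.13 ± 0.28). EPAS1 was higher in naive cells (3.24 ± 0.88 and 4.04 ± 0.94) and in epiblast (3.52 ± 0.57), and ARNT was higher in naive cells (0.83 ± 0.13 and 0.88 ± 0.13) and not called in epiblast (1.05 ± 0.59). Of 13 genes of the pentose phosphate and glycogen list, 5 were higher and 2 lower in DSY-c2, 2 and 6 in N40, and 2 and 3 in epiblast. Of 3 tested gluconeogenesis genes, 1 was higher and 1 lower in each line, and 1 was higher in epiblast.

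Across the 13 group means, HK2 ran against ENO2 (Spearman correlation -0.91) and ALDOC (-0.84), and ALDOC ran with ENO2 (0.95). ALDOA was less tied to the others, at -0.25 with HK2, 0.49 with ALDOC and 0.37 with ENO2. These describe 13 groups, whose libraries within a group share a source and which differ in source between cells and embryos, and are not tests. Among 8840 named genes with at least 10 CPM in a group, the nearest to HK2 were PNLDC1, a nuclease of the piRNA pathway (0.995), POLE2, a subunit of DNA polymerase epsilon (0.995), and ATP6V1H, a subunit of the vacuolar proton pump (0.989). PNLDC1 averaged 1430 CPM in the morula, 61.9 CPM in epiblast, 335 and 530 CPM in the naive groups of DSY-c2 and N40, and 35 and 14.1 CPM in their primed cells. The nearest to ENO2 were BCL11A (0.993), LCP1 (0.989) and CDH3 (0.984), and CDH3, P-cadherin, averaged 2.1 CPM in early ICM, 1800 CPM in epiblast and 36.6 and 316 CPM in DSY-c2 naive and primed cells. RDH11, BBS2 and C1orf198 were nearest to ALDOC (0.962 to 0.978), and ALOX12, VPS18 and TXNRD1 to ALDOA (0.835 to 0.896).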

How the data were processed

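RNA was extracted with an RNeasy kit and stranded poly(A)+ libraries were made with TruSeq reagents, per the labels. Trim Galore 0.4.0, STAR 2.5.3a and featureCounts 1.5.2 are named in the submitters' processing notes; for genome build, annotation and strand setting the sources used here state nothing. The authors deposited whole-number gene counts, not normalized, of which 78 columns were used; the 2 columns of a library were summed, and 6 further columns belong to no sample here and were not used. Among counts of 1 to 49, 65.0% were even, which points to both mates of a pair being counted, and fits were repeated with halved counts. Counting floors cover counting error only and are optimistic for this reason. Symbols came from the reference gene tables and covered 12660 IDs (41.1%). How reads shared with processed gene copies, common for genes such as GAPDH, were counted is likewise not stated, so such levels are uncertain.

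Counts were fitted with edgeR 4.0.16 in R 4.3.3 (filterByExpr, TMM, robust quasi-likelihood test, Benjamini-Hochberg adjustment over all genes, calls under 0.05): 17957 genes in 18 ESC libraries, 16929 in 21 embryo libraries and 18756 in all 39 for comparisons between cells and embryos. CPM was scaled by TMM over all 39 libraries, with factors from 0.832 to 1.2, a choice made after the files were seen. The SE was derived from the quasi-likelihood test, as the log2 change divided by the square root of its F value. Intervals are ± 1.96 SE, a normal quantile that makes them too narrow with 3 libraries a group. An interval can therefore leave out 0 where the test does not pass. Isozyme ratios used exact permutation in Python 3.11.15. DESeq2 1.42.0 was an alternative test. On simulated data edgeR recovered the changes made with few false calls, whereas DESeq2 made more false calls than its threshold allows. The simulated counts took their spread from edgeR's own estimates, which may favour edgeR, so the simulation cannot rank the 2 tools. Calls made by DESeq2 alone are given as such. Other alternatives were DESeq2 size factors, other filters, a fit of only the groups compared and leaving out each library. In the ratios of epiblast against ICM only epiblast libraries were left out.

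The members and lists were chosen with earlier results of these data known. Named genes were the 4 members, the other isozymes of their steps, called genes of the lists (up to 4 a list and comparison, largest first) and the 3 nearest genes to each member over group means. GPI, PFKP, PKM, PGK1, SLC2A1, HIF1A, ARNT and the neural markers were named outside this rule, after their values were seen. Some isozymes of these steps are not reported here. ENO3, LDHA and LDHB had no gene ID matched and are not analysed here.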

Additional observations from a re-analysis of the deposited data

Results flagged for a closer look

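The naive change of HKDC1 differed between DSY-c2, titled TgON in the naive state, and N40, titled TgOFF. Line and that difference in title cannot be told apart. The change was larger in DSY-c2 than in N40 by 3.41 on the log2 scale (SE 0.64, adjusted p = 0.00239, edgeR's test of the difference itself). That comparison called 15.1% of genes. The difference was 3.22 to 3.81 with each of the 12 libraries left out in turn. All 3 DSY-c2 naive libraries, at 8.66 to 23.9 CPM, exceeded all 9 other libraries of the 2 lines, whose highest was 2.67 CPM.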

How the results depend on the processing

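HK2 and ENO2 kept direction and call in the 3 main comparisons under every alternative that gave an adjusted p, and the isozyme ratios did in 51 of 51. For the ratios of epiblast against ICM, only the 3 epiblast libraries were left out in turn. The adjusted p of ALDOC:ALDOA was then 0.0368 to 0.0441 (exact permutation test). No ICM library was left out there, so the weight of early ICM replicate 3 in that ratio was not tested. For ENO2, DESeq2 gave no adjusted p in the embryo (10.31 for epiblast minus ICM). ALDOA and ALDOC depended more on the processing, for causes that were not tested. The ALDOA rise in DSY-c2 lost its call when only the groups compared were fitted (0.55, adjusted p = 0.093) and ran from 0.22 to 0.74 with a library left out; that in N40 lost it with no filter (0.45, adjusted p = 0.0756) and ran from 0.43 to 0.59. The ALDOC change in DSY-c2 ran from -1.89 to -0.33. ALDOA in epiblast minus ICM, never called, turned positive with DESeq2 size factors (0.23), a filter of 1 CPM in 3 libraries (0.03), DESeq2 (0.23) and only the groups compared (0.06), and ran from -0.18 to 0.31. ALDOA also changed sign between DSY127 and No.40 (-0.01 with DESeq2 size factors and with DESeq2, 0 with the 1 CPM filter) and in primed minus epiblast (0.01 with no filter).

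ALDOA passed in early ICM minus morula by DESeq2 (1.72, adjusted p = 0.0225) and in naive minus ICM with no filter (0.64, adjusted p = 0.0489). ALDOC in primed minus epiblast lost its call with DESeq2 size factors (-2.36, adjusted p = 0.0551), no filter (-2.29, 0.0959), the 1 CPM filter (-2.40, 0.0517) and DESeq2 (-2.36, 0.0616). HK2 lost it between DSY-c2 and N40 primed cells with no filter (0.89) and in epiblast minus hatched ICM with DESeq2 size factors (-1.50). The alternatives for other isozymes, and leaving out libraries in the difference of naive changes between lines, were chosen after seeing the data. That difference ran from -0.24 to 0.28 for ALDOA, -1.46 to 0.1 for ALDOC, -0.42 to 0.67 for ENO2 and -0.42 to 0.24 for ENO1. ENO1 in DSY-c2 ran from -0.21 to 0.46 and HKDC1 in N40 from -0.11 to 0.36.

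DESeq2 called 545 genes against 337 for DSY-c2 primed minus DSY127, 1541 against 802 for DSY127 minus No.40 and 2763 against 1042 for early ICM minus morula. For the 4 ICM steps in order it called 1089 against 5 (9 with halved counts), 322, 255 and 226, each of these 3 against 0. With a replicate block, the N40 changes were 3.29 (HK2), 0.54 (ALDOA), -0.42 (ALDOC) and -3.65 (ENO2), and epiblast minus ICM gave -2.20, 0, 5.19 and 10.24; no call of the 4 genes changed, and 10638 and 7455 genes were called. Same-numbered libraries did not deviate together (correlation -0.16 to -0.03 in N40, -0.02 to 0.04 between epiblast and ICM). With 3 libraries a group and no label on it, this cannot settle if the numbers pair them. The DSY-c2 groups share too few numbers for a block. Before implantation several libraries held fewer than 5 counts of ENO2 or ALDOC, so levels there are uncertain. Embryo library totals were 45.3 to 59.0 M counts, and libraries of a stage differed widely. Early ICM held 2, 4 and 1066 ALDOC counts, and expanded ICM 0, 0 and 91 ENO2 counts. The cause of this spread was not tested.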
